A study of Sus scrofa with 8 samples.

Results

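The BPIF genes are the 10 genes whose name begins with BPIF among the 30390 genes of the annotation that the study deposited. They were chosen by name alone, and no measured value entered the choice. Of these 10 genes, 9 lie in 1 cluster on pig chromosome 17 (BPIFB2, BPIFB6, BPIFB3, BPIFB4, BPIFA2, BPIFA3, BPIFA1, BPIFB1 and BPIFB5), and BPIFC lies alone on chromosome 5. The study prepared SMG (submucosal glands, which lie beneath the airway surface and secrete liquid, mucus and host defense proteins) from the trachea of 4 wild-type and 4 CFTR-/- newborn pigs. CFTR is the anion channel lost in cystic fibrosis, and the CFTR-/- pigs lack it throughout the body. The dissected glands also carried some surrounding tissue and a few surface cells. Single cells were sequenced by 3′ scRNA-seq, in which the reads lie near the 3′ end of each transcript. The authors counted them against this annotation, which was the same for all 8 libraries. The annotation holds coordinates and no value per animal. Count matrices were not analysed here, so no result here compares the genotypes. The depth of each library is unknown, and lengths of gene models carry no replicate error.

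BPIF proteins share the fold of BPI (bactericidal/permeability-increasing protein), in which a pair of similar barrel-shaped domains each binds lipid. The BPIFB proteins hold both domains, as do BPI, LBP (lipopolysaccharide-binding protein) and PLTP (phospholipid transfer protein), whereas the short BPIFA proteins correspond to the first domain. Several are secreted in the airway, nose and mouth. BPIFA1 (also called SPLUNC1 or PLUNC) is an abundant protein of airway liquid that acts on bacteria, on surface tension and on the epithelial sodium channel. BPIFB1 (LPLUNC1) is a mucosal secretory protein, and BPIFA2 is the parotid secretory protein of saliva.

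The 9 genes of the cluster spanned 304 kb (chr17:36531485-36835958, Sscrofa11.1), and all 9 were on the plus strand. From the upstream end their order was BPIFB2, BPIFB6, BPIFB3, BPIFB4, BPIFA2, BPIFA3, BPIFA1, BPIFB1 and BPIFB5, so that the 3 BPIFA genes stood together between a group of 4 BPIFB genes and a pair of them. No other gene was annotated between the first and the last. The gaps between neighbors differed widely. The gap was 7201 bp between BPIFB2 and BPIFB6, 9754 bp between BPIFB6 and BPIFB3, and 7659 bp between BPIFB3 and BPIFB4. It was 50604 bp between BPIFB4 and BPIFA2 and 38542 bp between BPIFA2 and BPIFA3, the 2 widest gaps of the cluster. BPIFA1 began 4681 bp after BPIFA3, BPIFB1 began 20684 bp after BPIFA1, and BPIFB5 began 1888 bp after BPIFB1. The median gap was 8706.5 bp (n = 8 gaps), and sequence between genes made up 46.3% of the cluster. Repeats marked in the assembly covered 28.0% of the cluster, and no run of unknown bases fell in it, so the wide gaps are sequence and not holes in the assembly.

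**Figure D1:**
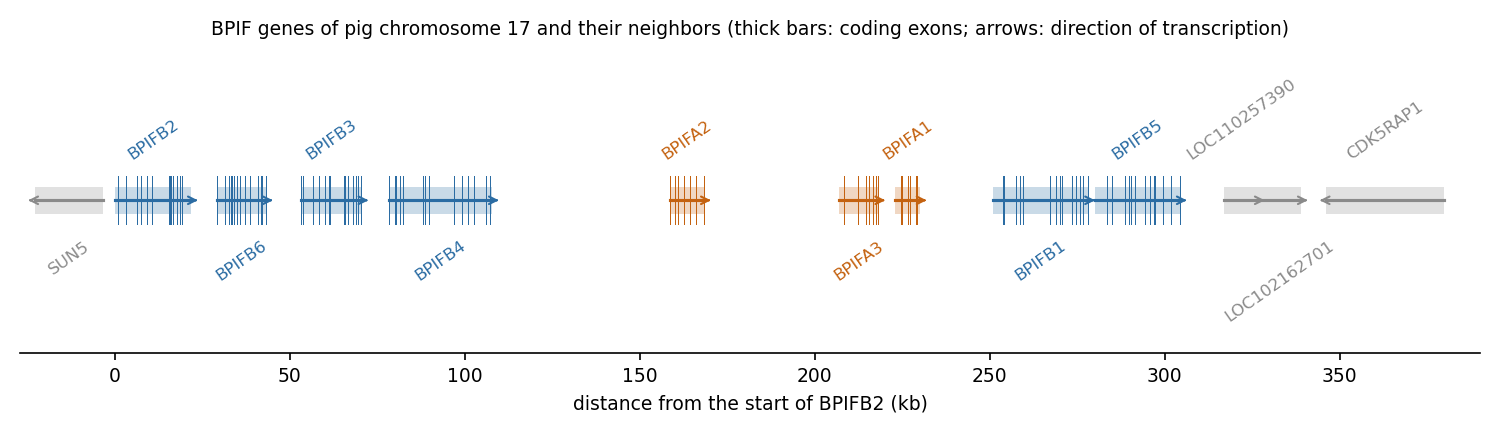
Map of the BPIF cluster of pig chromosome 17 and its neighbors, with distance from the start of BPIFB2 in kb on the x axis. Shaded boxes are whole genes, thick bars are coding exons of the BPIF genes and arrows give the direction of transcription (BPIFB blue, BPIFA orange, other genes gray). All 9 BPIF genes point the same way, with the widest gaps on both sides of BPIFA2.

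The ends of the cluster were set by gene name, and the next genes on each side carry other names. Whether any of them belongs to the same protein family was not tested. SUN5, which encodes a nuclear envelope protein of sperm, lay 3432 bp upstream of BPIFB2 on the minus strand. Downstream of BPIFB5 came 2 genes annotated as vomeromodulin-like on the plus strand, LOC110257390 after 12460 bp and LOC102162701 after 22186 bp. These models overlapped and shared 8 exon bases. CDK5RAP1, which encodes an enzyme that modifies transfer RNA, followed on the minus strand. The BPIF and vomeromodulin-like genes together made an unbroken run of 11 protein-coding genes on 1 strand. Among the 19560 protein-coding genes on chromosomes, 569 (2.91%) lay in a run of 11 or more, and 37 of 9744 runs were that long. BPI itself lay on the same chromosome, 4.51 Mb beyond the cluster, with LBP and then PLTP farther on. No gene with the name CETP was found.

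Coding exon number separated the BPIFA genes from all others. BPIFA2, BPIFA3 and BPIFA1 each had 7 coding exons, with 714, 714 and 747 coding bases (238, 238 and 249 amino acids, without the stop codon). The 6 BPIFB genes had 15 or 16 coding exons and 1374 to 1857 coding bases in the model used. That model was the coding transcript reaching farthest downstream, with the longest coding sequence where ends were the same. BPIFB2 coded for 458 amino acids, BPIFB3 for 476, BPIFB1 for 487, BPIFB5 for 492, BPIFB6 for 538 and BPIFB4 for 619. BPIFC had 16 coding exons and 506 amino acids. The counts for BPIFB3 and BPIFC, and the BPIF median below, take a 2 bp gap within an exon as an intron. With this gap closed, each of these 2 genes had 15 coding exons. The groups did not overlap in either measure. BPI, LBP and PLTP had 15 coding exons each. Over the 10 BPIF genes the median was 15.5 coding exons and 1444.5 coding bases, and over all 20661 protein-coding genes it was 7 coding exons and 1206 coding bases.

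Coding exons were numbered so that the exons in the middle of the genes lined up, with the next to last coding exon of a BPIFA gene as exon 6. The same exons then recurred with nearly the same lengths. In exon 6 the length was 61 bp in BPIFB2, BPIFB6, BPIFB3, BPIFB4 and BPIFC and 64 bp in BPIFA2, BPIFA3, BPIFA1, BPIFB1 and BPIFB5. Exon 5 split the genes in the same way, with 61 to 64 bp in the first set and 82 to 85 bp in the second. Exon 7 had 92 bp in the 5 genes of the first set and 86 bp in BPIFB1 and BPIFB5. The first set comprises the upstream end of the cluster and BPIFC, and the second the run of 5 neighbors from BPIFA2 to BPIFB5. BPI, LBP and PLTP had 64, 64 and 92 bp in exons 5, 6 and 7, which matched the first set in exons 5 and 7 and the second in exon 6. Exon 3 drew another line, with 105 bp in BPIFB2, BPIFB6, BPIFB3, BPIFB4 and BPIFB5, 108 bp in BPIFA2, BPIFA3, BPIFA1 and BPIFB1, and 129 bp in BPIFC and in BPI, LBP and PLTP.

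Beyond exon 7, some exons of the 7 long genes had a fixed length and others did not. Exon 11 had 68 bp and exon 13 had 64 bp in all 7, and exon 12 had 43 or 46 bp. Exon 8 ranged from 177 to 204 bp, exon 10 from 153 to 174 bp and exon 14 from 74 to 80 bp. The 74 bp belonged to BPIFC, whose model leaves out 2 bases there, and the other long genes had 77 or 80 bp. The coding part of exon 15, the last, had 21 bp in BPIFB4, 27 bp in BPIFB3, 30 bp in BPIFB6, BPIFB1 and BPIFB5, 39 bp in BPIFB2 and 120 bp in BPIFC. The coding sequence after exon 6 added up to 764 to 797 bp in the 6 BPIFB genes and 863 bp in BPIFC. Where coding lengths differed in exons 2 to 14, they differed by multiples of 3. Each of these exons thus began at the same position in a codon in every BPIF gene that continued past it. For exon 10 of BPIFB3 and exon 14 of BPIFC this rests on the 2 bp that each model leaves out. On the genome these exons covered 170 and 76 bp. The start of the gene varied as well. Exon 2 had 94 bp in BPIFB2, 217 bp in BPIFB5 and 520 bp in BPIFB4, and BPIFB4 coded for the longest protein. BPIFB6 and BPIFB4 had a further coding exon in front, with 244 and 106 coding bp. In the first coding exon of BPIFB1 only the start codon was coding. The front exons of BPIFB6 and BPIFB1 were coding in only 1 predicted model of each gene. The other BPIFB6 model had 15 coding exons and 1362 coding bases. The other BPIFB1 models, the curated one included, had 15 coding exons and 1416 coding bases. The BPIFA genes stopped in exon 7, of which 17 bp (BPIFA2), 32 bp (BPIFA3) and 38 bp (BPIFA1) were coding. The exons up to the sixth therefore held 94.9 to 97.6% of a BPIFA coding sequence and 42.0 to 57.2% of the coding sequence of a BPIFB gene.

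**Figure D2:**
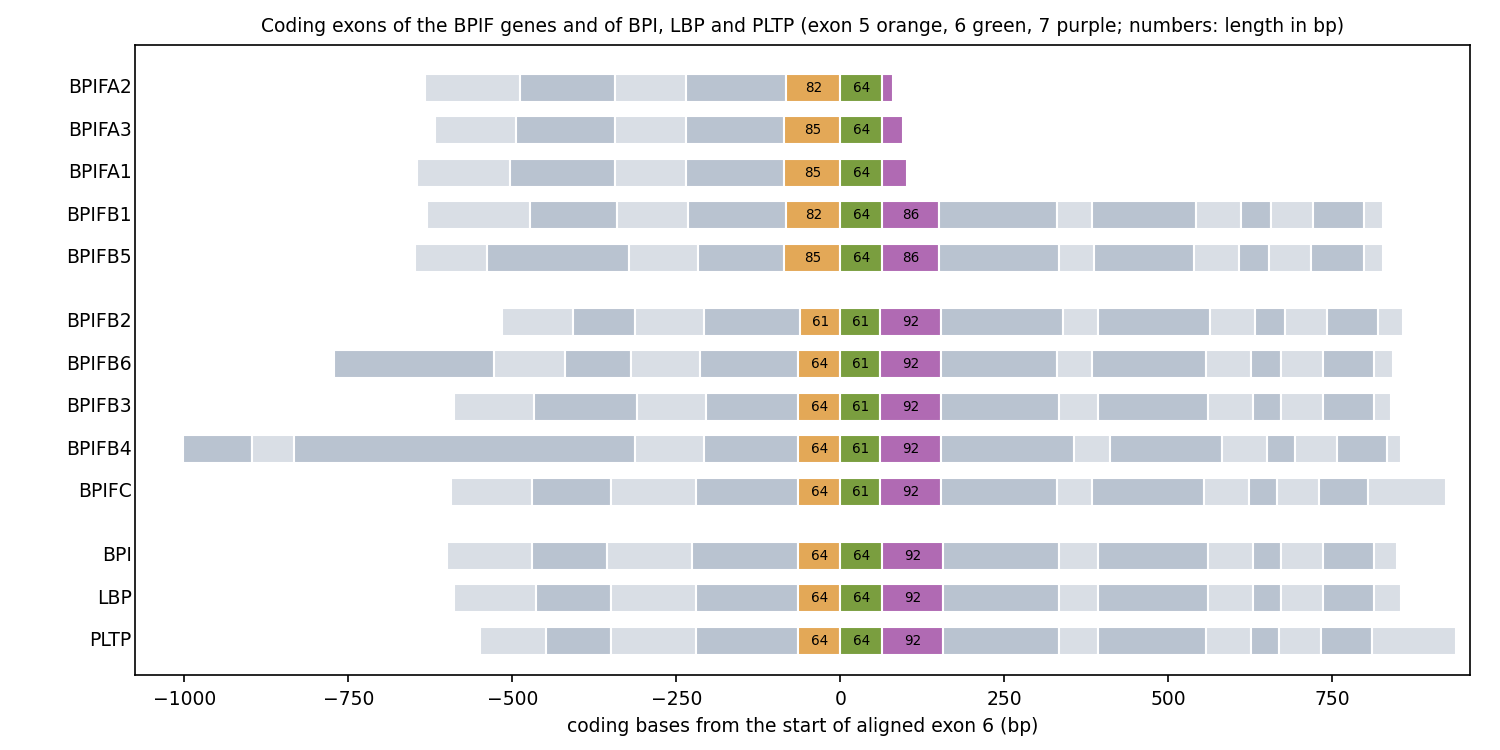
Coding exons of the 10 BPIF genes and of BPI, LBP and PLTP, drawn to scale and lined up at the start of exon 6, with coding bases in bp on the x axis. Each block is 1 exon, and exons 5, 6 and 7 are orange, green and purple with their length in bp (not printed in the shortest blocks). Exon 5 is 82 to 85 bp long in the upper 5 genes and 61 to 64 bp in the next 5, and the BPIFA genes end in exon 7.

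By the numbering used, each of the 10 BPIF genes has a junction between exons 6 and 7. This junction is the point past which the BPIFA genes code for only a few more residues. It is shown for 6 genes with the last 15 bases of exon 6 in lower case and the first 15 bases of exon 7 in capitals, 5′ to 3′ on the plus strand of Sscrofa11.1. Exon 6 lies at chr17:36760380-36760443 in BPIFA1, chr17:36697668-36697731 in BPIFA2, chr17:36796581-36796644 in BPIFB1, chr17:36542218-36542278 in BPIFB2, chr17:36591670-36591730 in BPIFB3 and chr17:36620133-36620193 in BPIFB4.
BPIFA1: tacattccatcgtcgACGCGCTAATCCAAG
BPIFA2: ttaagaacatcattgATTCACTCCCGAAGG
BPIFB1: tgaacctggtgaagtTGCCCACTTCTCTCA
BPIFB2: tgggcactttaattgGCCTCAGCCGGGTGG
BPIFB3: tgggggccgtgctgtGCCTGGTGCCCCTCG
BPIFB4: tgggtcttgtggactCTCTGATTCCTCTGG
The junction fell at the same position in a codon in all 10 genes, but its bases were not the same. No position of the 30 held the same base in all 10 genes. Over the 45 pairs of genes a median of 11 of 30 bases were identical, from 5 between BPIFA1 and BPIFB1 to 17 between BPIFB2 and BPIFB6.

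Read along the annotated coding exons, all 10 coding sequences began with ATG, ran in frame and held no stop codon before the last. This is a property of the models, and those of BPIFB3 and BPIFC each leave out 2 bp of the genome inside an exon. Hydrophobic residues (alanine, isoleucine, leucine, valine, phenylalanine, methionine and tryptophan) made up 8 to 14 of the first 20. The lowest counts were 8 in BPIFB1 and 9 in BPIFB6, and other models of these genes begin at a start codon farther downstream. BPIFA1 was the richest in leucine, at 24.1% of its residues, where the other 9 held 13.0 to 19.7%. The proteins differed in charge. Lysine and arginine minus aspartate and glutamate came to 9 in BPIFA3 and 4 in BPIFB6, and to values from -2 (BPIFB2 and BPIFB5) to -16 (BPIFB1) in the other 8. The count for BPIFA1 was -12, and for BPI it was 18. The sequence motif for attachment of sugars to asparagine occurred 11 times in BPIFC, 5 times in BPIFB2, 3 times in BPIFA3 and 1 or 2 times in the other 7. BPIFA2 and BPIFC had the lowest GC content in their coding sequence, at 48.6 and 47.0%, against 54.6 to 59.8% in the others.

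The proteins were distant from each other. In alignments of whole proteins the median identity was 30.5% over the 45 pairs, from 22.8 to 43.2%. A short BPIFA protein laid along a long BPIFB protein is cut into pieces in such an alignment, so the part coded up to exon 6, which every gene has, was also aligned alone. The median was then 30.1%, from 21.2% between BPIFB5 and BPIFC to 51.0% between the neighbors BPIFB3 and BPIFB4 (210 aligned residues). BPIFA1 was closest to BPIFB4 (39.2%) and BPIFB3 (36.3%), then to BPIFB5 (35.4%), and less close to the other BPIFA proteins (29.1% to BPIFA2 and 31.7% to BPIFA3). BPIFA2 and BPIFA3 shared 25.4%. By percent, BPIFB2 was closest to BPIFB5 in this part (34.0%, 53 of 156 aligned residues), and BPIFB1 to BPIFC (35.2%, 58 of 165). Other pairs shared more residues over longer alignments, with 59 of 184 for BPIFB2 and BPIFB3 and 68 of 217 for BPIFB1 and BPIFA1. Over whole proteins, BPIFB2 and BPIFB5 shared 22.8%, the lowest of the 45 pairs.

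In the part coded after exon 6, the 21 pairs of long BPIF proteins had a median identity of 27.7%, and BPIFB3 and BPIFB4 were again the closest pair (36.9%). BPIFB2 and BPIFB5 shared 19.2% there, the lowest of these pairs. Pairs of proteins from the same exon 5 set had median identities of 31.4% (BPIFA2 to BPIFB5, 10 pairs) and 30.0% (the other 5 genes, 10 pairs) up to exon 6, and pairs across the sets had 29.7% (25 pairs). These ranges overlapped widely. Between a BPIF protein and BPI, LBP or PLTP the median was 27.9% up to exon 6 and 27.0% after it. For scale, BPI and LBP shared 48.4 and 42.7% in these parts. Pairs share proteins, so these values are a description without a test.

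**Figure D3:**
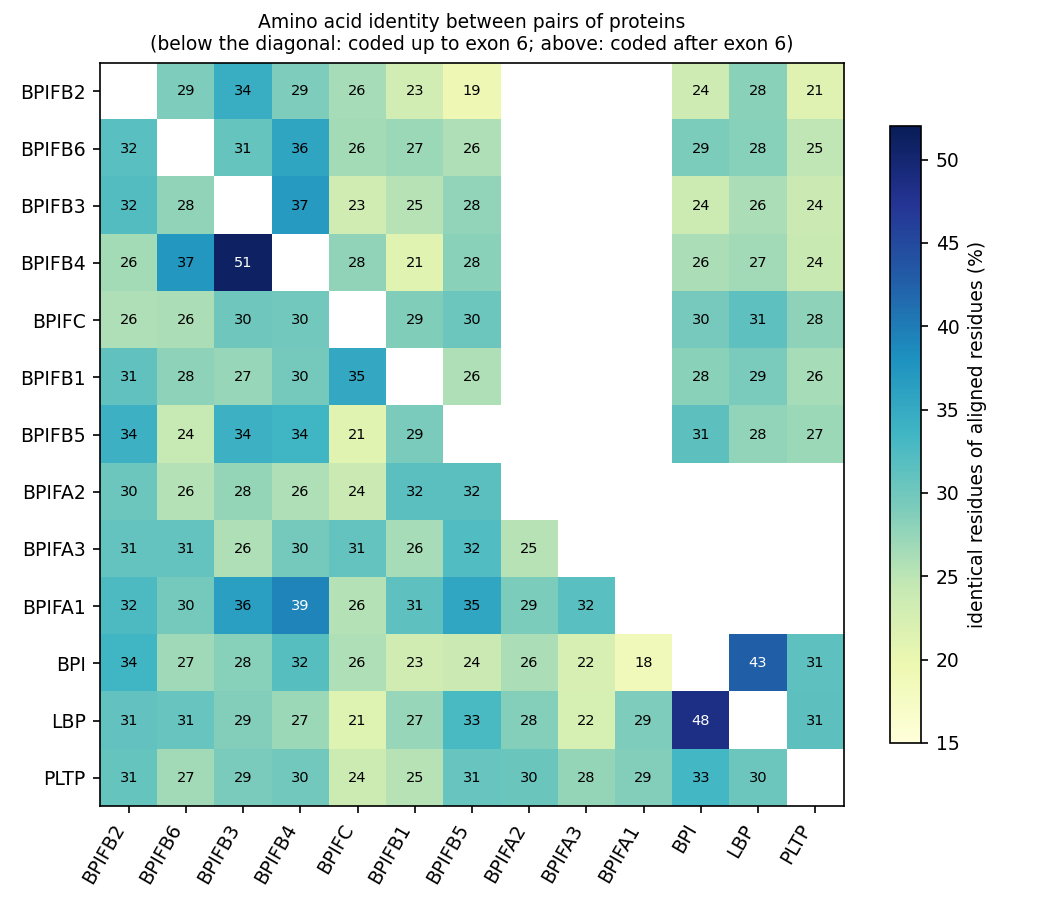
Amino acid identity in percent of aligned residues for each pair of BPIF proteins and for BPI, LBP and PLTP. Values below the diagonal are for the part coded up to exon 6 and values above it for the part coded after exon 6, which the BPIFA proteins hardly have (blank). BPIFB3 and BPIFB4 form the darkest BPIF square on both sides (51.0 and 36.9%).

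The genes were mostly intron. Introns took 83.7% (BPIFA1) to 95.7% (BPIFC) of the span of the transcript, and all 126 introns of at least 30 bp began with GT and ended with AG, as did 98.8% of the 183594 introns of all protein-coding genes. The longest was 11026 bp long, in BPIFC, and in the cluster 5567 bp, in BPIFB4. BPIFA1 was the most compact gene at 7125 bp from end to end, and BPIFB4 was the longest of the cluster at 29599 bp. At the 5′ end, the models used for BPIFB2, BPIFA3, BPIFA1, BPIFB5 and BPIFC had at least 1 exon wholly before the start codon. This depended on the model, because the curated BPIFA3 and BPIFA1 transcripts had no such exon and the other BPIFB1 models had at least 1. The share over all protein-coding genes was not computed. The 5′ UTR was 182 bp long in BPIFA1, 137 bp in BPIFB1 and 89 bp in BPIFB2. The models of BPIFB3 and BPIFB4 began at the start codon itself, 2 of 10 BPIF genes where 11.5% of all protein-coding genes had no 5′ UTR.

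BPIF genes had short 3′ UTRs, counted from the stop codon to the end of the model, without introns, in the coding transcript reaching farthest downstream. In the BPIFA genes the 3′ UTR was 168 bp (BPIFA2), 231 bp (BPIFA1) and 282 bp (BPIFA3). In the BPIFB genes it was 116 bp in BPIFB1, 122 bp in BPIFB5, 173 bp in BPIFB6, 239 bp in BPIFB2, 256 bp in BPIFB3 and 682 bp in BPIFB4, and in BPIFC it was 479 bp. All 10 were below the median of all protein-coding genes, 716 bp, and the BPIF median was 235 bp. The families overlapped, and BPIFB4 stood apart from the other genes of the cluster. In these models none of the 10 was under 100 bp, which was true of 15.7% of all protein-coding genes. In the curated transcripts of BPIFA1 and BPIFA3, which end earlier, the 3′ UTR was 6 and 95 bp long. Among the relatives it was 286 bp in BPI, 249 bp in LBP and 296 bp in PLTP. Of 19 host defense genes listed for comparison, such as those for lactoferrin and lysozyme, 18 were found by name, and their median was 185 bp. Not all of them are genes of gland cells. The list includes S100A8 (71 bp), S100A9 (114 bp) and S100A12 (109 bp). The paper reports these in secretory cells of the airway surface and not in ductal serous cells.

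A poly(A) signal, the hexamer that directs cleavage of the transcript (AATAAA or its variant ATTAAA), lay within the last 50 bp of 8 of the 10 transcripts and of 60.9% of all protein-coding genes. AATAAA began 18 bp before the end of BPIFB6 and BPIFB3, 20 bp before that of BPIFA2, 22 bp in BPIFB5, 23 bp in BPIFA1 and 26 bp in BPIFB1. BPIFB2 and BPIFC held ATTAAA, 30 and 27 bp before the end. BPIFA3 and BPIFB4 held neither hexamer in the last 50 bp, nor in the last 100 bp. A hexamer is a match of letters and does not show where transcripts ended in these glands.

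Stop codons of most BPIF genes lay in or next to a short last exon, so the 3′ end was split by introns. The last exon was 149 bp long in BPIFB1, 155 bp in BPIFB5, 188 bp in BPIFA2 and 196 bp in BPIFA1, with a median of 243.5 bp over the 10 genes and 1075 bp over all protein-coding genes. In BPIFA1 the last exon was wholly untranslated, the only such exon after a stop codon in the 10 models. The last 500 exon bases, the end at which 3′ reads lie, crossed 5 exon junctions in BPIFB6, BPIFB1 and BPIFB5, 4 in BPIFB2, BPIFB3, BPIFA2 and BPIFA1, and 3 in BPIFA3. In BPIFB4 and BPIFC they crossed none. At least 4 junctions were thus found in 7 of 10 BPIF genes, and in 2.87% of all protein-coding genes. The median was 4 for the BPIF genes, 2 for the 18 host defense genes and 0 for all protein-coding genes. It was also 4 for the relatives BPI, LBP and PLTP (from 1 to 4), so many junctions near the 3′ end are not particular to the BPIF genes. On the genome these 500 bases extended over 2751 bp in BPIFA1, 4169 bp in BPIFB2, 7578 bp in BPIFB1 and 8595 bp in BPIFB5. The 3′ end of BPIFB5 thus reached over 8595 bp of a gene 24314 bp long.

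**Figure D4:**
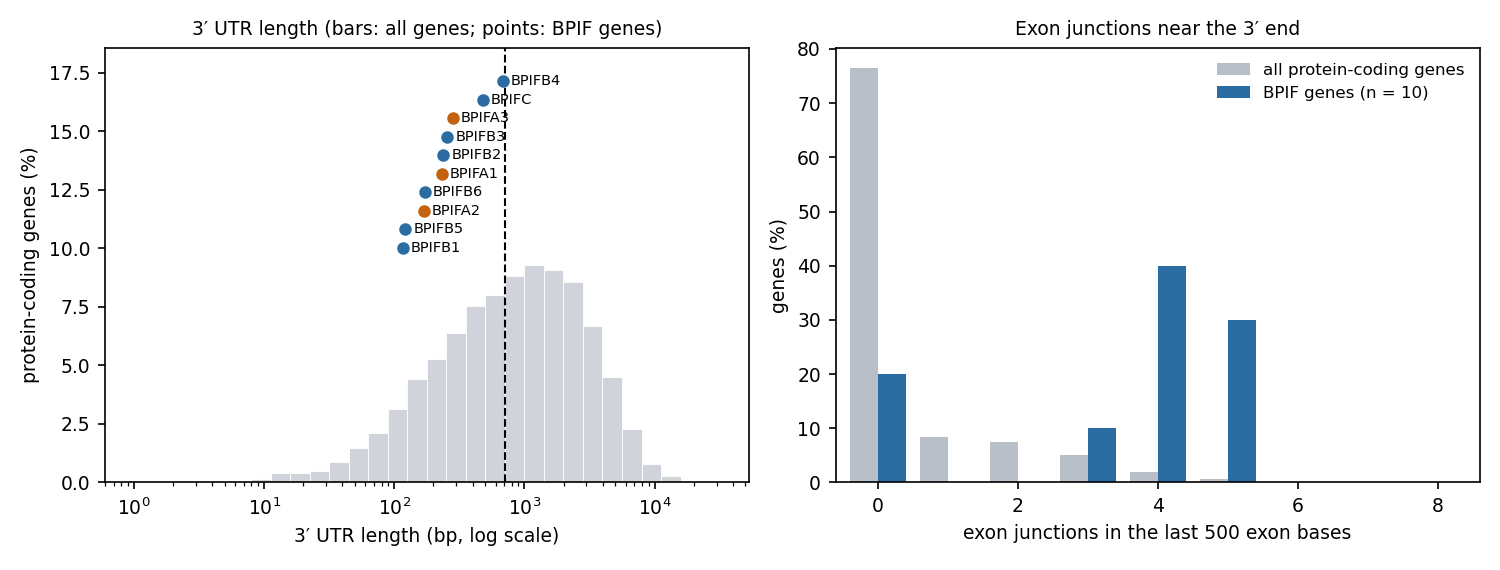
Left, 3′ UTR length in bp on a log axis, with the share of all protein-coding genes in percent as bars (genes without a 3′ UTR are not drawn but count in the percent), their median of 716 bp as a dashed line, and the 10 BPIF genes as labelled points at arbitrary heights. Right, number of exon junctions in the last 500 exon bases, as percent of all protein-coding genes (gray) and of the 10 BPIF genes (blue). All BPIF points lie left of the median, and 7 of the 10 genes have 4 or 5 junctions.

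Several genes had more than 1 annotated 3′ end. BPIFA1 had 4 transcripts, of which 3 were coding. In the curated RefSeq transcript the BPIFA1 3′ UTR was 6 bp long and the model stopped at chr17:36760867. In both predicted coding transcripts, 755 bp farther along the chromosome, it was 231 bp long and spliced into an additional exon. Exon bases past that stop belonged to BPIFA1 in the predicted models and not in the curated one. The curated transcript of BPIFA3 had a 3′ UTR of 95 bp and stopped 187 bp before the predicted one, with 282 bp. In BPIFB1 the ends differed by 2 bp. BPIFB5 had the widest spread. Transcript variant X1 ended 6190 bp before the other 2 with 12 coding exons, a 3′ UTR of 699 bp and no junction in its last 500 bases, whereas the farther models had 15 coding exons and 5 such junctions. Both BPIFB6 models ended at the same base. BPIFB2, BPIFB3, BPIFB4, BPIFA2 and BPIFC had a single transcript each.

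No BPIF gene shared exon bases, or any part of its span, with another gene on the same strand (0 of 10; 3.34% of all protein-coding genes shared exon bases). The last 500 exon bases of the 10 genes held no run of 50 bases, and none of 30, identical to the transcript of another gene, other BPIF genes included. When each stretch of 30 bases was searched in both strands of the genome outside its own gene, 8 of 10 transcripts had no match anywhere. BPIFB6 had 3 such stretches of 1931, all in its 5′ UTR. BPIFA3 had 16 of 1108, all in its 3′ UTR and 3.4% of the stretches in its last 500 bases. For these searches the share over all protein-coding genes was not computed, so they do not set the BPIF genes apart from other genes.

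The study designed in situ hybridization targets and qPCR primers for BPIFA1 and BPIFB2, and all 10 of these sequences matched their own gene exactly and the longest transcript of no other gene. The 3 BPIFA1 targets of 40 bases lay in its coding sequence, 481, 346 and 245 bases from the 3′ end. The last of them crossed the junction of exons 6 and 7 printed above, with 13 bases before it and 27 after it, at chr17:36760431-36760847. It matched the 3 coding transcripts and not the non-coding one, and the other 2 targets matched all 4. The 3 BPIFB2 targets of 37 to 40 bases were coding too and lay farther from the end, at 1333, 983 and 924 bases. Across the other BPIF genes, the closest place to any of the 6 targets differed at 15 to 19 bases.

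The primers are shown 5′ to 3′, and capitals mark none of their bases because each matched along its whole length.
BPIFA1 forward: acgatccctctcctgaacga
BPIFA1 reverse: tgaggaccagactcagaggg
BPIFB2 forward: tggacaccgtgtttgagagg
BPIFB2 reverse: ccacgacgtagccctcatag
The BPIFA1 pair bounded 127 bases of transcript (chr17:36756659-36758200, 1542 bp with the intron), 581 bases from the 3′ end. The BPIFB2 pair bounded 132 bases (chr17:36550229-36553142, 2914 bp with introns), 268 bases from the end, and its reverse primer crossed an exon junction. The closest place in another BPIF gene differed from each primer at 5 to 7 of 20 bases. Both amplicons and all 6 targets were coding, so none of them lay in the 3′ UTRs that differ between the BPIFA1 models.

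**Figure D5:**
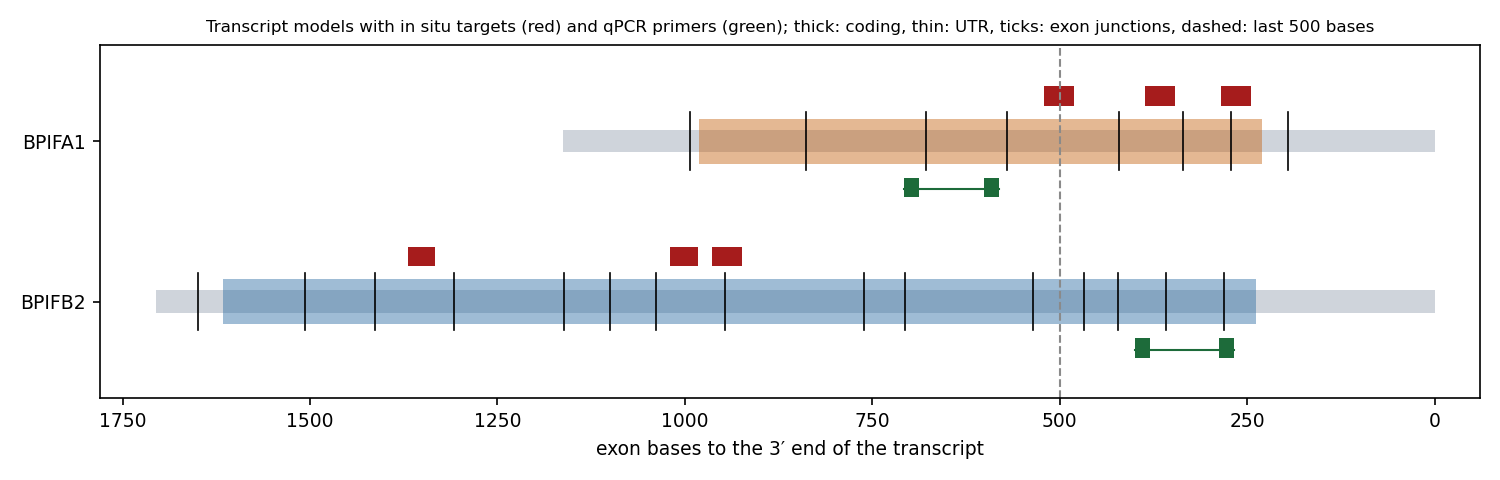
Transcript models of BPIFA1 and BPIFB2, with exon bases to the 3′ end on the x axis. Thick bars are coding and thin bars UTR, ticks are exon junctions, red boxes are in situ targets, green boxes are qPCR primers joined by their amplicon, and the dashed line marks the last 500 bases. The BPIFA1 targets lie 245 to 481 bases from the end and the BPIFB2 targets 924 to 1333 bases.

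All 19 transcripts of the 10 genes had the same exons as in NCBI RefSeq Annotation Release 106, so the study's changes to the annotation left the BPIF models as they were. Some models carry signs of differences between the assembly and the transcripts. RefSeq records 8 substitutions and 8 insertions or deletions between its BPIFB2 transcript and the genome, 13 substitutions for BPIFA2, 5 substitutions and 1 insertion or deletion for BPIFB5, 1 substitution and 2 insertions or deletions for BPIFB1, and 1 substitution for BPIFA1. In BPIFB3 and BPIFC, a gap of 2 bp cut an exon in 2 where RefSeq had inserted a base to keep the reading frame. With these gaps closed, BPIFB3 and BPIFC each had 15 coding exons. Exon 10 of BPIFB3 then held 168 coding bp and exon 14 of BPIFC 74 bp, counted without the 2 gap bases. On the genome these exons covered 170 and 76 bp. Over the other long BPIF genes exon 10 had 153 to 174 bp and exon 14 had 77 or 80 bp. How these differences bear on read counts was not tested.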

How the data were processed

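The authors sequenced single cells of tracheal SMG (4 wild-type and 4 CFTR-/- newborn pigs) with a 3′ kit and assigned reads with Cell Ranger, which the submitters' processing notes give as version 3.0.2. The deposited file is the authors' edited RefSeq annotation, 1 for all 8 libraries. It holds 1-based coordinates on Sscrofa11.1 and no counts, and the depth of the libraries is unknown. No per-sample column was used.

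Genes were read by name, with the coding transcript that ends farthest 3′. Sequences came from the RefSeq genome of the same build, and models were compared with Annotation Release 106. Proteins were aligned with BLOSUM62 (gap open 10, extension 0.5). Coding exons were lined up from the exon 3 places before the 54 to 60 bp exon of the long genes, or the next to last exon of the BPIFA genes. Genes are not replicates, so no test was run. The 10 results, 16 alternatives and gene lists were chosen with earlier results of these data known. The named genes are all BPIF genes, the neighbors of the cluster, BPI, LBP, PLTP and CETP, with 19 host defense genes by count and median. Measures were tested on simulated gene models, and 5 of 5 were recovered in all 200. Target and primer sequences came from the study's supplement. Python 3.11.15, pysam 0.24.0, numpy 2.4.6, Biopython 1.88 and matplotlib 3.10.9 were used.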

Additional observations from a re-analysis of the deposited data

How the results depend on the processing

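Of 18 alternatives, 10 left the value of a result identical. With the longest coding transcript of each gene the median 3′ UTR became 247.5 bp, and without BPIFC it was 231 bp. Under a bound of 200 bp in place of 100 bp, 4 of 10 BPIF genes had a short 3′ UTR, as did 24.2% of all protein-coding genes. The median amino acid identity was 29.0% in local alignments, and 30.1 and 27.7% for the parts coded up to and after exon 6, which were chosen after seeing the data. With AATAAA alone, 6 of 10 genes had a poly(A) signal (49.8% of all protein-coding genes). With up to 2 mismatches, 9 of 10 targets and primers matched a single gene. The exception was the BPIFB2 forward primer, which then matched 2 other genes. Lengths describe models of 1 annotation, and where transcripts end in SMG was not measured here. No paired analysis was possible because gene models belong to no animal.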
